A study of Homo sapiens with 13 samples.

Results

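The SLC25 family comprises the carriers that move metabolites across the inner mitochondrial membrane, and a few members that work at the peroxisome or the outer mitochondrial membrane. Its members were taken here as all non-control probes whose gene name in the array files begins with SLC25A, which gave 54 of 34127 probes, for 45 genes. Of these, 46 probes for 39 genes were well above background throughout the arrays of some group, and were kept, as were 22751 of all probes, and 17594 genes were tested in all. The rule used gene names and no measured value.

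The study compared CCRF-CEM, a leukemia line of human T lymphoblasts, in its parental form (CEM PA) with a resistant population (CEM RES) obtained under rising concentrations of FK866, and the cells used were resistant to 100 nM. FK866 inhibits NAMPT, the enzyme that recycles nicotinamide to NAD. Both lines received 5 nM FK866 or the DMSO vehicle (mock) for 48 h, and total RNA was hybridised to 1-colour Agilent arrays. There were 3 arrays of CEM PA mock, 2 of CEM PA FK866, 4 of CEM RES mock and 4 of CEM RES FK866, all labelled as biological replicates. Both CEM RES groups come from the 1 resistant subline that the methods describe, which was kept in medium with 100 nM FK866, and the sources used here do not give how long it was off the drug before the mock treatment.

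As background, the carriers share a fold built from repeats of a single domain, each marked by a signature that begins with a proline and ends with a basic residue. ADP/ATP carriers export the ATP made by oxidative phosphorylation, ATP-Mg/phosphate carriers adjust the adenine nucleotide pool of the matrix, and the phosphate carrier supplies the phosphate for ATP synthesis. The aspartate/glutamate and oxoglutarate/malate carriers form the malate-aspartate shuttle, which brings the reducing equivalents of cytosolic NADH into mitochondria, a membrane that NADH itself does not cross.

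To show where the arrays read these transcripts, 4 probe sequences that lie in coding sequence are given, each of 60 bases and written 5′ to 3′ in the sense of the transcript. The SLC25A11 probe is shown because it holds codons of the carrier signature, marked in capitals, which a translation of the probe found. The SLC25A6 and SLC25A23 probes are shown because each gene has another probe nearer the end of its transcript, and the SLC25A39 probe because its gene differed between the lines. In the coordinates of the array files (hg19) the SLC25A23 probe lies at chr19:6454335-6454394 and the SLC25A39 probe at chr17:42397379-42397438, both on the minus strand.
SLC25A11: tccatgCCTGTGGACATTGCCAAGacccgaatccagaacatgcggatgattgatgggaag
SLC25A6: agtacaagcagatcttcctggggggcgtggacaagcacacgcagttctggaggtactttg
SLC25A23: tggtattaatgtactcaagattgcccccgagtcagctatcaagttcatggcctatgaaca
SLC25A39: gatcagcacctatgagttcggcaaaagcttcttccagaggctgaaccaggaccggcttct

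Promoters are given for SLC25A13 and SLC25A29, the carriers with the largest difference upwards and downwards between the mock-treated lines. The 250 bases before each start site are from RefSeq (GRCh38.p14), at chr7:96322099-96322348 and chr14:100306445-100306694, both on the minus strand, with matches to CACGTG or CCAAT on either strand in capitals.
SLC25A13: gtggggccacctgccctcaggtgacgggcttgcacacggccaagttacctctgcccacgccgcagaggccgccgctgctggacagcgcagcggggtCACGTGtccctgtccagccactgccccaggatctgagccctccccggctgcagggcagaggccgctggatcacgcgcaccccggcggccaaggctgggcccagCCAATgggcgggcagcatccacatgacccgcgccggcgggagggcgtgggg
SLC25A29: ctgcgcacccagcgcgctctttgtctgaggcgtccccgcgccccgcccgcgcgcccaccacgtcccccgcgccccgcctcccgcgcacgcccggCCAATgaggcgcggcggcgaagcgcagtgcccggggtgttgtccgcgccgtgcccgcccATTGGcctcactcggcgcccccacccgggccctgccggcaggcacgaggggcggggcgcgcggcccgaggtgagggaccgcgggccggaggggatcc

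RefSeq held 48 promoters, each of 300 bases, for 37 of the carrier genes. CACGTG, the letters bound by E-box factors, occurred in 8 of these promoters (16.7%), against 7.26% of all 35116 promoters. CCAAT occurred in 22 (45.8%), against 34.6% of all. The letters GCGCATGC, from the site of NRF-1, and TGATGCAA, from that of ATF4, occurred in none of the carrier promoters, against 3.05% and 0.866% of all. The 8 genes with CACGTG were SLC25A13, SLC25A22, SLC25A26, SLC25A31, SLC25A33, SLC25A36, SLC25A38 and SLC25A46. Of these, SLC25A13 and SLC25A46 differed between the mock-treated lines, SLC25A31 was not measured, and the rest were not called. Among all measured carriers 51.3% were called there, and 47.7% of all genes. A link between these letters and the line difference was not tested.

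All values below are log2 signals after quantile normalization, and a difference of 1 on this scale is a doubling. A gene was called with limma when its p value, adjusted by the Benjamini-Hochberg method over all genes tested, was under 0.05, and the double threshold of the study (unadjusted p under 0.05 and a log2 fold change beyond 0.75) was counted as well. A probe's signal also depends on its sequence, so signals are compared between arrays for the same probe and not between carriers. Of the array's 43118 non-control spots, 26457 to 33239 were well above background, and no spot was saturated. The CEM PA arrays were scanned in 2 sessions and all CEM RES arrays in another, so a difference between the lines cannot be told apart from one between scan sessions. Of the markers of the T lineage, 10 of 10 were well above background on all 13 arrays, as were 3 of 5 B lineage markers (among them CD79A and CD79B), 1 of 4 myeloid markers (CD14) and 2 of 5 epithelial markers (KRT8 and KRT18). EPCAM and CDH1 were above it on no array.

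The first comparison asked how the mock-treated lines differ. CEM RES differed from CEM PA in 20 of the 39 carriers (51.3%), 12 higher and 8 lower, against 47.7% of all genes (24.7% higher and 23% lower). The largest differences were a lower signal of SLC25A29, a carrier of basic amino acids, and of SLC25A25, an ATP-Mg/phosphate carrier, and a higher signal of SLC25A13, an aspartate/glutamate carrier, and SLC25A10, the dicarboxylate carrier. The median log2 fold change of the carriers was 0.14, beside 0.04 over all genes. In RNA of whole cultures, fewer cells that express a carrier and less of its RNA per cell cannot be told apart. The double threshold was passed by 12 carriers (30.8%) and by 34.6% of all genes. The arrays of both lines did not overlap in 24 carriers (61.5%), beside 48.9% of all genes.

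**Figure D1:**
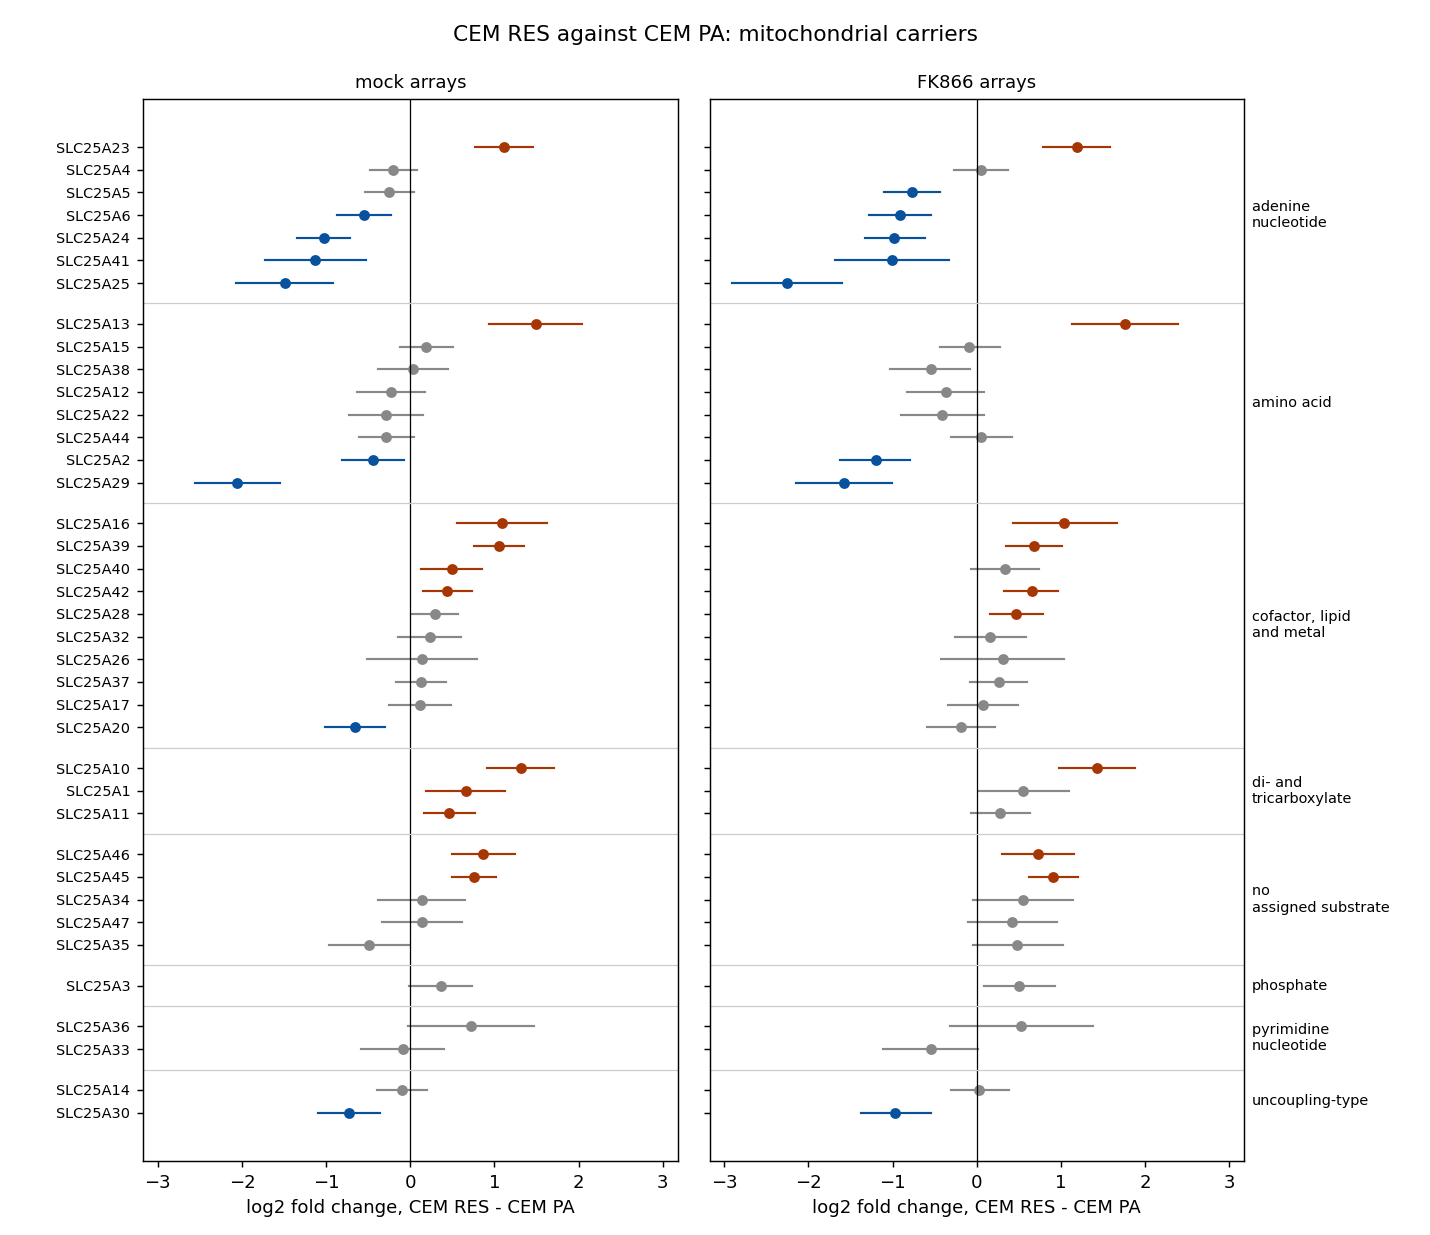
Log2 fold change of CEM RES over CEM PA (x axis) for 38 of the 39 measured carriers by substrate class, in mock arrays (left) and FK866 arrays (right), with 95% confidence intervals from limma. Orange marks carriers called higher in CEM RES, blue those called lower and grey those not called. Among adenine nucleotide carriers all called members but SLC25A23 lie left of 0, and all 3 di- and tricarboxylate carriers lie right of it.

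Among the 7 measured adenine nucleotide carriers, 1 was higher and 4 were lower in CEM RES. SLC25A25 read 9.48, 10.35 and 10.47 on the CEM PA mock arrays and 9.13, 8.63, 8.22 and 8.45 on the CEM RES mock arrays. Every CEM RES array was below every CEM PA array, and the log2 fold change was -1.49 (standard error 0.27, adjusted p = 0.000753). SLC25A24, of the same calcium-dependent type, differed by -1.03 (standard error 0.14, adjusted p = 0.000151), from 9.85, 10.25 and 10.19 to 9.24, 9.02, 9.09 and 8.93. SLC25A41, the ATP-Mg/phosphate carrier without the calcium-binding part, differed by -1.13 (standard error 0.27, adjusted p = 0.0051), and by -0.64 with the normexp background correction. For neither gene did the arrays of the lines overlap.

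SLC25A23, the remaining ATP-Mg/phosphate carrier, went the other way on its brighter probe. It read 10.05, 10.28 and 10.14 in CEM PA mock and 11.40, 11.26, 10.92 and 11.48 in CEM RES mock, higher by 1.11 (standard error 0.16, adjusted p = 0.000172). The probe printed above, which lies in the coding part of the same transcript, gave -0.28 (standard error 0.17, adjusted p = 0.208 over all probes), so the rise was measured by 1 of 2 probes. The mean of both probes gave 0.42 (adjusted p = 0.0262). The brighter probe, at chr19:6440226-6440285, lies 14.1 kb from the probe of SLC25A41 at chr19:6426069-6426128, and the pair differed in opposite directions between the lines. SLC25A29 and SLC25A47, the other pair of measured carriers with probes within 100 kb, lie 38.7 kb apart on chromosome 14 and differed by -2.06 and 0.14.

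Of the ADP/ATP carriers, only SLC25A6 (ANT3) was called between the mock-treated lines. Its brighter probe read 13.92, 14.01 and 13.97 in CEM PA mock and 13.75, 13.24, 13.30 and 13.38 in CEM RES mock. The arrays did not overlap, and the difference was -0.55 (standard error 0.15, adjusted p = 0.00877). The coding probe printed above gave -0.76 (standard error 0.16, adjusted p = 0.00238 over all probes). SLC25A4 (ANT1), the form of heart and muscle, differed by -0.20 (95% confidence interval -0.48 to 0.08) and SLC25A5 (ANT2), the form of dividing cells, by -0.25 (-0.54 to 0.04), neither called. SLC25A31 (ANT4), a form of the germ line, was not well above background on any array.

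SLC25A3, the phosphate carrier, was not called, with a difference of 0.36 (-0.01 to 0.73). It read 15.69 on the CEM PA mock array of the first scan session and 16.19 and 16.22 on the other 2, beside 16.30 to 16.48 in CEM RES mock. The 2 pyrimidine nucleotide carriers were not called either. SLC25A33 differed by -0.09 (-0.58 to 0.40). SLC25A36 differed by 0.72 (-0.03 to 1.47) on its brighter probe, where the CEM PA mock array of the first session read 10.98 and the other 2 read 12.32 and 12.70. Its other probe gave -0.04.

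Of the 8 measured amino acid carriers, 1 was higher and 2 were lower in CEM RES. SLC25A13 (citrin) read 8.04, 7.64 and 7.15 in CEM PA mock and 8.76, 9.48, 9.30 and 8.85 in CEM RES mock. The groups did not overlap, and the difference was 1.49 (standard error 0.26, adjusted p = 0.000598), or 2.80-fold. SLC25A12 (aralar), the other aspartate/glutamate carrier, differed by -0.23 (-0.63 to 0.17), with overlapping arrays.

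SLC25A29, the carrier of arginine, lysine and ornithine, showed the largest difference of all carriers between the mock-treated lines. It read 14.78, 15.17 and 15.27 in CEM PA mock and 13.58, 12.94, 12.60 and 12.94 in CEM RES mock. All CEM RES arrays were more than 1 unit below the lowest CEM PA array, and the log2 fold change was -2.06 (standard error 0.23, adjusted p = 3.57e-05), or 4.16-fold lower. SLC25A2, an ornithine carrier, was lower by -0.44 (adjusted p = 0.0446). This call was lost in 15 of 25 alternative settings, 10 of them with 1 array left out, and scaling to the 75th percentile gave -0.09. The glutamate carrier SLC25A22 differed by -0.29 (-0.73 to 0.15), and SLC25A15, SLC25A38 and SLC25A44 lay between -0.29 and 0.19, none called. SLC25A18, the other glutamate carrier, was above background on 1 CEM RES mock array and no other.

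All 3 measured di- and tricarboxylate carriers were higher in CEM RES mock. SLC25A10, which exchanges malate and succinate for phosphate, read 9.90, 10.01 and 9.52 in CEM PA mock and 10.99, 11.24, 11.07 and 11.19 in CEM RES mock. The groups were separate and 1.31 apart (standard error 0.18, adjusted p = 0.000153). SLC25A1, which exports citrate, was higher by 0.66 (adjusted p = 0.0248) and SLC25A11, the oxoglutarate/malate carrier, by 0.46 (adjusted p = 0.0164). Both calls were lost without CEM PA mock replicate 2 (adjusted p = 0.0589 and 0.053), and that of SLC25A1 also without CEM PA mock replicate 3 (0.111) or CEM RES mock replicate 4 (0.0677). Counting all 25 alternative settings, the calls of SLC25A1 and SLC25A11 were lost in 3 and 2. SLC25A21, the oxodicarboxylate carrier, was above background on 0 of 3 CEM PA mock, 1 of 2 CEM PA FK866, 3 of 4 CEM RES mock and 3 of 4 CEM RES FK866 arrays, and was not tested.

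Of the 11 carriers of cofactors, lipids and metals, 5 were higher and 1 was lower in CEM RES mock. SLC25A39, a carrier of glutathione, read 11.79, 11.60 and 11.58 in CEM PA mock and 12.63, 12.53, 12.86 and 12.82 in CEM RES mock. The groups were separate, and the difference was 1.06 (standard error 0.13, adjusted p = 8.11e-05). Its paralogue SLC25A40 was higher by 0.49 (adjusted p = 0.0273). Of the 3 carriers linked to coenzyme A, 2 were higher, SLC25A16 by 1.09 (adjusted p = 0.0035; 0.47 on its other probe, also called) and SLC25A42 by 0.44 (adjusted p = 0.0164). Without CEM PA mock replicate 2 the calls of SLC25A40 (adjusted p = 0.137) and SLC25A42 (0.0615) were lost, and that of SLC25A40 also without CEM RES mock replicate 1 (0.0631). Counting all 25 alternative settings, these calls of SLC25A40 and SLC25A42 were lost in 3 and 2.

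SLC25A20, the carnitine/acylcarnitine carrier that brings fatty acids to oxidation, was the only lower member of this class (-0.66, adjusted p = 0.00583). SLC25A17, a peroxisomal carrier of coenzyme A, FAD and NAD, was not called and differed by 0.12 (-0.25 to 0.48), and SLC25A32, which carries folate and FAD, by 0.23 (-0.14 to 0.60). The iron carriers SLC25A28 and SLC25A37 (mitoferrins) and SLC25A26, which carries S-adenosylmethionine, lay between 0.13 and 0.29, none called.

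Of the uncoupling-type carriers, SLC25A30 (KMCP1) was lower in CEM RES mock, with 9.33, 8.93 and 9.32 against 8.68, 8.41, 8.41 and 8.36. The groups were separate, and the difference was -0.73 (standard error 0.17, adjusted p = 0.00388). SLC25A14 (UCP5) differed by -0.10 (-0.40 to 0.20). SLC25A27 (UCP4) was not above background on any array with either of its 2 probes. Among carriers without an assigned substrate here, SLC25A46, which acts in mitochondrial dynamics at the outer membrane, was higher by 0.87 (adjusted p = 0.00157) and SLC25A45 by 0.76 (adjusted p = 0.000306), each on both of its probes. SLC25A34, SLC25A35 and SLC25A47 were not called, SLC25A43 was above background on 3 arrays of 13, and SLC25A48 on none.

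**Figure D2:**
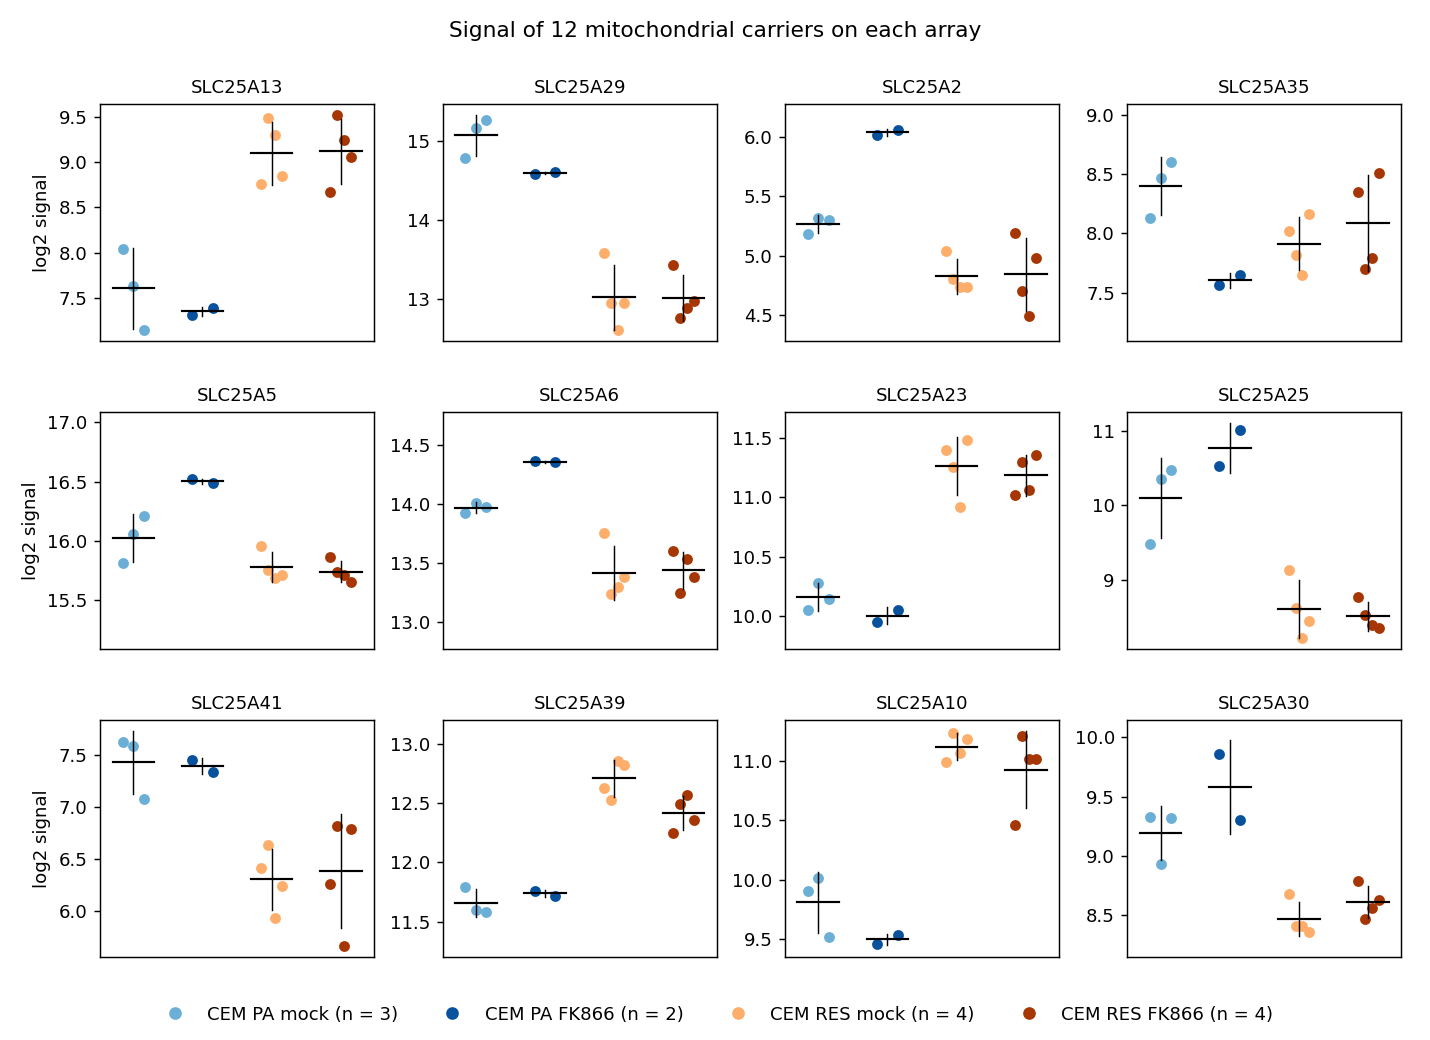
Log2 signal (y axis, range differs between panels) of 12 carriers on each array. Points are arrays, horizontal lines group means and vertical lines 1 SD. For SLC25A29 the CEM RES arrays lie between 12.60 and 13.58 and the CEM PA arrays between 14.58 and 15.27, and for SLC25A2 both CEM PA FK866 arrays lie above all others.

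The same comparison on the FK866 arrays answers whether the lines differed under the drug. Its groups hold other arrays than the mock comparison. The comparisons are not independent, since both share the estimate of the spread, the resistant subline and the scan sessions. Under FK866, 17 carriers were called (43.6%), 9 higher and 8 lower in CEM RES, against 35.5% of all genes (18.6% higher and 16.9% lower). Of these, 15 were also called in the mock-treated lines, all in the same direction, which is 75% of the mock calls and 88.2% of the FK866 calls. Over all genes 4959 were called in both, 99.4% of them in the same direction, which is 59.1% of the mock calls and 79.5% of the FK866 calls, and the carriers' shares were not tested against these. The double threshold was passed by 13 carriers (33.3%), beside 29.6% of all genes. A group of 2 CEM PA arrays entered here, and their arrays did not overlap with CEM RES in 29 carriers (74.4%), beside 57.7% of all genes.

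SLC25A25 showed the largest difference under FK866, with 10.53 and 11.01 in CEM PA against 8.77, 8.53, 8.39 and 8.35 in CEM RES. The gap between the groups exceeded 1 unit, and the log2 fold change was -2.26 (standard error 0.30, adjusted p = 0.000213). SLC25A13 was higher by 1.76 (adjusted p = 0.000794), with 7.32 and 7.39 against 8.67, 9.52, 9.24 and 9.05. SLC25A29 was lower by -1.58 (adjusted p = 0.000844), with 14.58 and 14.60 against 13.43, 12.75, 12.88 and 12.97. For both genes the lines were separate with and without the drug.

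Called under FK866 and not in the mock-treated lines were SLC25A5 and SLC25A28. SLC25A5 read 16.52 and 16.49 in CEM PA FK866 and 15.86, 15.74, 15.71 and 15.65 in CEM RES FK866, a difference of -0.77 (standard error 0.15, adjusted p = 0.00239). The mitoferrin SLC25A28 was higher by 0.47 (adjusted p = 0.025), a call lost without either CEM PA FK866 array (0.0944 and 0.153) or without CEM RES FK866 replicate 2 (0.0593) or 3 (0.0547). SLC25A6 was lower by -0.91 (adjusted p = 0.0015), so that ANT2 and ANT3 were both lower in CEM RES under the drug, while SLC25A4 differed by 0.05 (-0.27 to 0.37). SLC25A2 was lower by -1.20 (adjusted p = 0.000613), and by -0.74 with 75th percentile scaling and -0.40 with the normexp background correction, still called in both. SLC25A30 was lower by -0.97 (adjusted p = 0.0024, and 0.0557 without CEM PA FK866 replicate 1). SLC25A45 was the most clearly higher carrier without an assigned substrate (0.91, adjusted p = 0.000392). Called in the mock-treated lines only were 5 carriers, among them SLC25A1, SLC25A11, SLC25A20 and SLC25A40, and whether their line difference changed with the drug is the test of both responses given below, which called none.

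**Figure D3:**
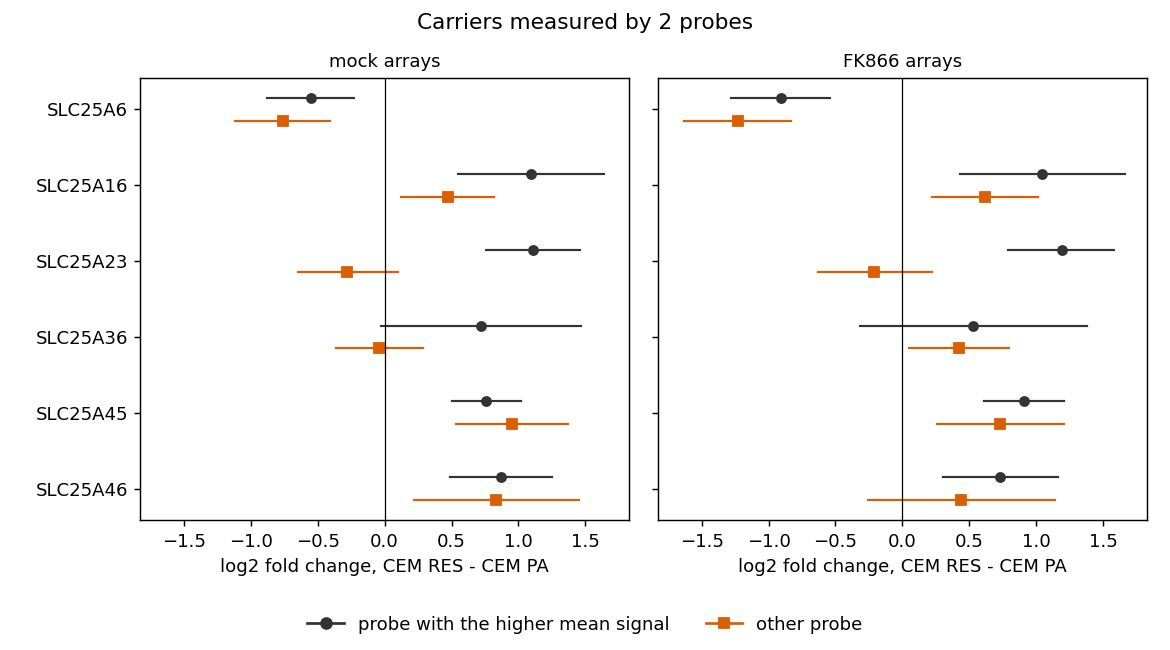
Log2 fold change of CEM RES over CEM PA (x axis) for 6 of the 7 carriers with 2 measured probes, in mock arrays (left) and FK866 arrays (right), with 95% confidence intervals. Dark circles are the probe with the higher mean signal, orange squares the other. The probes of SLC25A23 and SLC25A36 lie on opposite sides of 0 in mock arrays, and those of SLC25A23 in FK866 arrays too.

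The carriers with 2 measured probes gave a check on these values. In the mock comparison both probes were called in 4 of the 7 genes (SLC25A6, SLC25A16, SLC25A45 and SLC25A46), 1 of 2 in 2 genes, among them SLC25A23, and none in SLC25A36. The sign was opposite in 2 of them, SLC25A23 and SLC25A36. On the FK866 arrays both probes were called in 3 genes, and the second probe of SLC25A46 gave 0.44 (adjusted p = 0.312 over all probes) where the first gave 0.73.

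The second question was what FK866 changed within each line. In CEM PA no carrier passed the adjusted threshold, where 0.512% of all genes did, and 3 had an unadjusted p under 0.05 (7.69%, against 13.5% of all genes). The double threshold was passed by SLC25A2, higher, and SLC25A35, lower, which is 5.13% of the carriers beside 5.47% of all genes (2.5% higher and 2.97% lower). The arrays did not overlap in 16 carriers (41%), beside 34.4% of all genes. The median log2 fold change was -0.04, with 19 carriers above 0 and 20 below, and -0.02 over all genes.

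SLC25A2 read 5.18, 5.32 and 5.30 in CEM PA mock and 6.02 and 6.06 in CEM PA FK866. Both FK866 arrays were above all mock arrays, by 0.77 (standard error 0.20, adjusted p = 0.111), and within the 2 scan sessions the difference was 0.83 and 0.75. With the normexp background correction it was 0.26. SLC25A35, a carrier without an assigned substrate, read 8.13, 8.47 and 8.60 in mock and 7.56 and 7.65 under FK866. Both FK866 arrays were below all mock arrays, with a difference of -0.80 (standard error 0.26, adjusted p = 0.198), and -0.57 and -0.89 within the sessions. With the paired replicate numbers as a block SLC25A35 gave -0.70, short of the double threshold, while SLC25A25 gave 0.85 and passed it.

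The other changes with FK866 in CEM PA were smaller and lay in several classes, none past either threshold. Outside the adenine nucleotide class they included SLC25A33 (0.52), SLC25A38 (0.47) and SLC25A29 (-0.48). SLC25A5 read 15.81, 16.06 and 16.21 in mock and 16.52 and 16.49 under FK866, a difference of 0.48 (adjusted p = 0.205), and 0.72 and 0.36 within the sessions. SLC25A6 gave 0.38 (0.00 to 0.77) and SLC25A25 0.67 (-0.02 to 1.36), while SLC25A4 gave -0.28 (-0.62 to 0.06). SLC25A3 gave -0.13 (-0.58 to 0.32). SLC25A12 and SLC25A22 gave 0.15 each and SLC25A13 -0.25, with intervals that spanned 0. Of the 39 carriers, 28 had the same sign in both scan sessions, where a difference that rounded to 0 counted as unlike. The share over all genes was not computed.

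In CEM RES no carrier passed either threshold. No gene of the array (0%) passed the adjusted threshold, and 1.34% of all genes passed the double threshold. SLC25A39 alone had an unadjusted p under 0.05 (-0.29, adjusted p = 0.996), which is 2.56% of the carriers beside 4.78% of all genes. The arrays overlapped in all 39 carriers, beside 2.52% of genes in which they did not. The log2 fold changes lay between -0.29 and 0.18, with 0.01 for SLC25A2, 0.18 for SLC25A35, -0.03 for SLC25A5 and SLC25A4, and 0.02 for SLC25A6 and SLC25A13. Of the 39 carriers, 17 had the same sign on both slides, where a difference that rounded to 0 counted as unlike. The share over all genes was not computed here either.

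**Figure D4:**
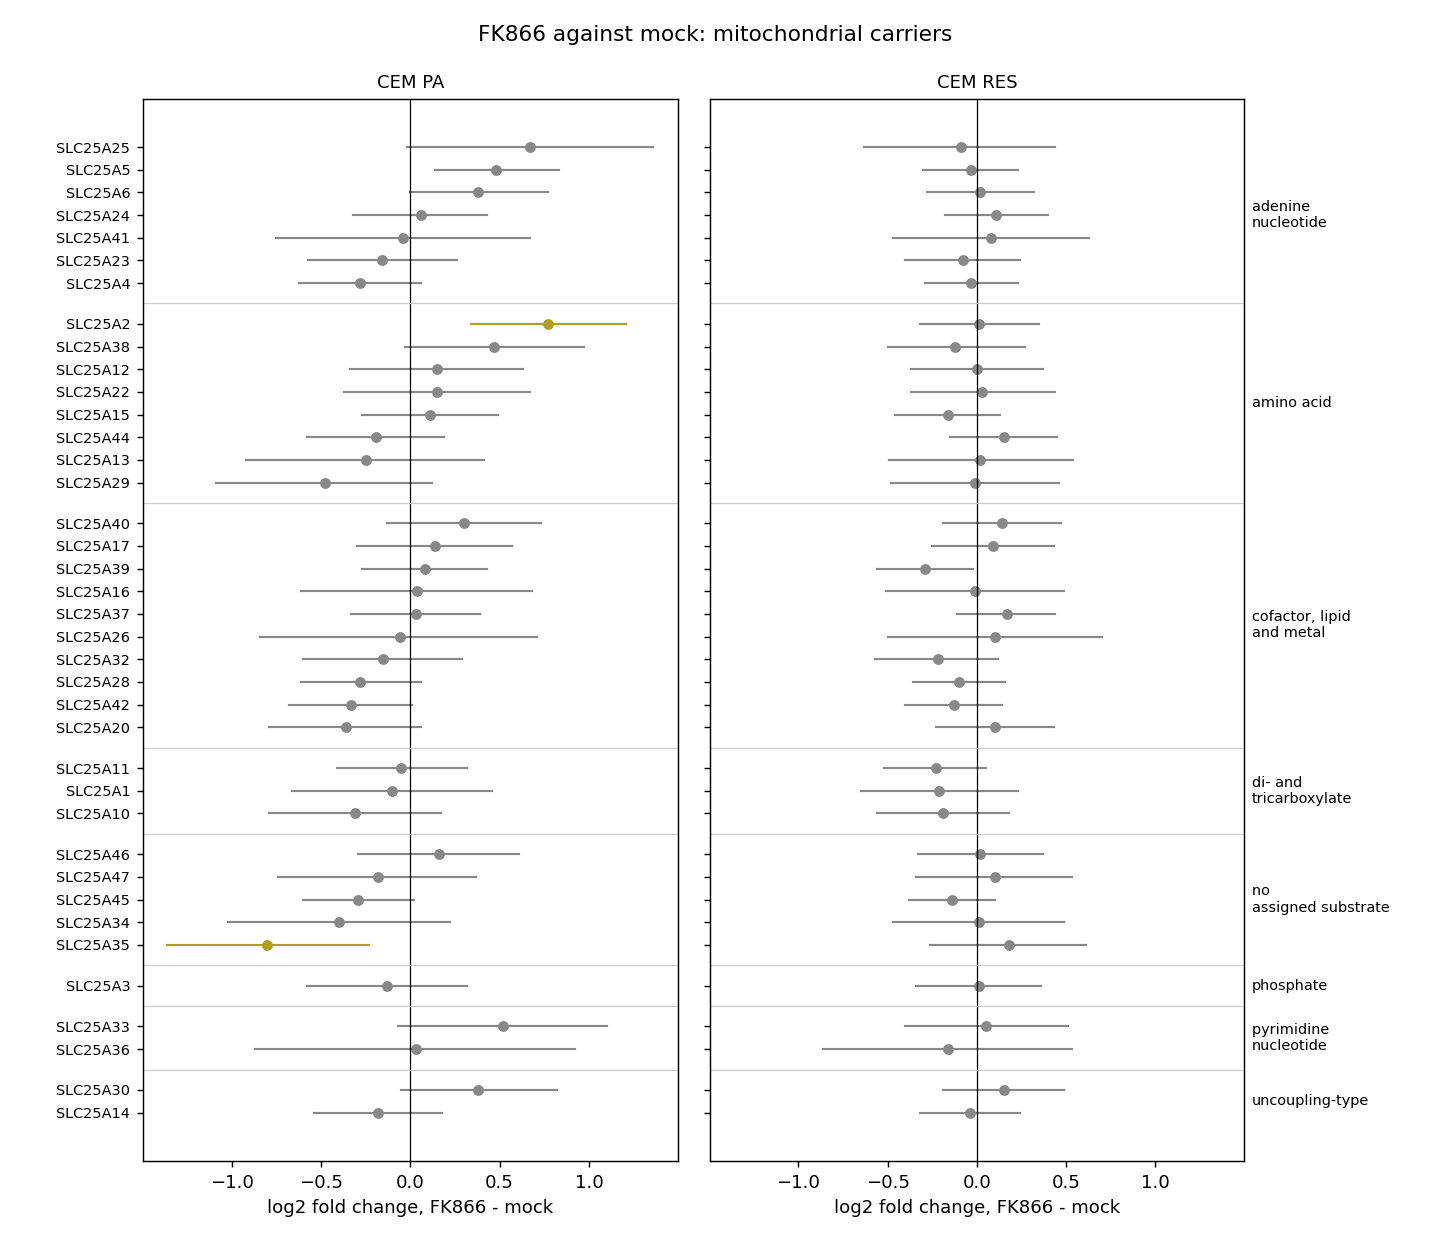
Log2 fold change of FK866 over mock (x axis) for 38 of the 39 measured carriers by substrate class, in CEM PA (left, 2 against 3 arrays) and CEM RES (right, 4 against 4 arrays), with 95% confidence intervals from limma. Ochre marks SLC25A2 and SLC25A35, which passed the double threshold, and grey the rest. In CEM RES the values lie between -0.29 and 0.18, in CEM PA between -0.80 and 0.77.

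The difference between both responses was tested as the change in CEM RES minus that in CEM PA. No carrier passed the adjusted threshold, beside 0.131% of all genes, and 3 had an unadjusted p under 0.05 (7.69%, against 11.1%). The double threshold was passed by SLC25A35 (0.97, standard error 0.33, adjusted p = 0.326) and SLC25A2 (-0.76, standard error 0.25, adjusted p = 0.322; -0.24 with normexp), or 5.13% of the carriers beside 6.74% of all genes (3.64% higher and 3.1% lower). With the replicate block SLC25A25 passed it too (-0.95, and -0.76 without the block). SLC25A5 gave -0.52 (-0.96 to -0.08, adjusted p = 0.382).

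Carriers that the array lists under other names were outside the rule, and some are given beside it. Of 6 tested, 2 were higher in CEM RES mock (UCP2 and UCP3) and 0 lower, beside 24.7% and 23% of all genes. The median log2 fold change of the 6 was -0.14. Under FK866 3 were higher and 0 lower, beside 18.6% and 16.9% of all genes. UCP2, an uncoupling protein of immune cells that also exports intermediates of the citric acid cycle, read 10.54, 10.75 and 10.59 in CEM PA mock and 11.78, 11.70, 12.19 and 12.61 in CEM RES mock. The groups were separate, with differences of 1.45 (standard error 0.21, adjusted p = 0.000215) in mock and 1.26 (adjusted p = 0.00198) under FK866. UCP3, its muscle-type neighbour on chromosome 11, chosen after its values were seen, read 6.68, 7.40 and 7.43 in CEM PA mock and 11.78, 10.42, 11.82 and 11.43 in CEM RES mock. It differed by 4.20 (standard error 0.40, adjusted p = 1.1e-05), or 18.3-fold, and by 4.04 under FK866. MCART1 (SLC25A51), the mitochondrial carrier of NAD, differed by -0.11 (-1.02 to 0.79) between the mock-treated lines and by -0.12 (-1.20 to 0.96) with FK866 in CEM PA, where its mock arrays spread from 7.83 to 9.83. Its other probe gave 0.42 (0.06 to 0.77, adjusted p = 0.0529 over all probes) between the mock-treated lines. With FK866 in CEM PA that probe gave 0.33 (-0.09 to 0.76), not called and opposite in sign to the first.

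Genes that work with the carriers were taken from lists, and their counts stand beside the 24.7% of all genes higher and 23% lower in CEM RES mock. Of 4 enzymes of the malate-aspartate shuttle, 3 were higher in CEM RES mock and none lower, namely MDH2 by 1.01, GOT1 by 0.79 and GOT2 by 0.46, while MDH1 gave -0.06. Under FK866 only MDH2 was called (0.84). Of 12 genes that import carrier proteins into the inner membrane, 3 were higher and 1 lower in CEM RES mock. The higher ones were the small chaperones of the intermembrane space TIMM8B (1.57), TIMM8A (1.02) and TIMM9 (0.79), and the lower one gave -0.34. Under FK866 2 of the 12 were higher and 1 lower, beside 18.6% and 16.9% of all genes. TIMM8A gave 0.30 there and was not called. Of 15 genes of other mitochondrial transport, 6 were higher and 2 lower, among them the serine transporter relative SFXN2 (2.07) and SFXN4 (1.52), of the same family. Of its other members in the list SFXN5 was lower (-0.52, adjusted p = 0.00603) and SFXN3 gave -0.51, not called. In each of the 3 lists FK866 called no gene in either line at the adjusted threshold. LETM1, of the last list, passed the double threshold in CEM PA (0.76, adjusted p = 0.264), beside 5.47% of all genes. It also passed it for the difference between responses (-0.89, adjusted p = 0.394), beside 6.74% of all genes. No other gene of these lists did so.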

How the data were processed

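Each of 13 RNA samples in 4 groups was hybridised to its own 1-colour array. For each, the authors deposited the spot intensity, background-corrected by Feature Extraction 10.7.7.1, and a log2 table they had quantile normalized, used here as an alternative. Here intensities were put on the log2 scale, flagged spots set to missing, controls removed, and arrays quantile normalized. A probe was kept if well above background on all arrays of 1 group or more, and the brightest kept probe stood for its gene. Limma 3.58.1 in R 4.3.3 fitted the 4 groups in one model (prior degrees of freedom 3.15), and every p value is its moderated test, two-sided, adjusted over all 17594 genes, or over all 22751 kept probes where the text says so. No covariate entered. The p values measure the spread between arrays labelled as biological replicates, and the number of arrays limits the precision. Files were parsed in Python 3.11.15 (pandas 2.3.3, numpy 2.4.6) and plotted with matplotlib 3.10.9.

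Members, lists and the rule for naming were chosen with earlier results of these data known. Named were all carriers past a threshold in the FK866 comparisons, the largest rise and fall per class between lines, and SLC25A3, A4, A5, A6, A12, A13, A14, A17, A22, A27, A30, A32, UCP2 and MCART1. Other genes were named after their values were seen. Replicate numbers of the labels were used to pair samples in 1 alternative, the replicate block. Deviations of equally numbered FK866 and mock arrays correlated in every pair (0.217 to 0.484). In CEM RES, unequally numbered pairs gave -0.304 to 0.068. In CEM PA this cannot establish a pairing, since deviations within a group of 2 arrays mirror each other. There, mock replicate 3 with FK866 replicate 2 gave 0.235. Alternatives were 75th percentile scaling, normexp, other filters and probe rules, the deposited log2 table, blocks, array weights, the compared groups alone and leaving out arrays. A scan session block was added after seeing the data. The method was tested on simulated data. A few genes are not reported here by name or in the plots, and the counts include them.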

Additional observations from a re-analysis of the deposited data

Results flagged for a closer look

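In 78 groups of 4 CEM RES arrays (39 carriers, mock and FK866), 2 had 1 array far from the others, and chance alone marks about 1 in 20 such groups. SLC25A17 read 11.56 in CEM RES mock replicate 3, against 11.17 to 11.22 on the other 3 arrays, a gap of 0.853 of the whole range. SLC25A30 read 8.68 in CEM RES mock replicate 1, against 8.36 to 8.41, a gap of 0.838 of the range. Without that array the difference of SLC25A30 between the mock-treated lines was -0.80 (adjusted p = 0.00336 in limma). The cause was not tested.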

How the results depend on the processing

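No carrier called here changed direction under the alternatives that kept a single value per gene. With each probe tested separately, the second probe of SLC25A23 went the other way. It gave -0.28 in mock and -0.21 under FK866, against 1.11 and 1.19 on the brighter probe. With FK866 in CEM PA, 1 carrier (SLC25A2, higher) passed the adjusted threshold with array quality weights, and none in the other settings. With slide as a block, CEM PA was compared only on the slide that held both treatments, 1 array against 1, where SLC25A25 gave 1.05. The double threshold with FK866 in CEM PA was passed by 1 carrier with 75th percentile scaling or array weights (SLC25A35 in both). With normexp it was passed by 0, and by 1 to 3 when single arrays were left out. It was passed by 1 carrier without CEM PA FK866 replicate 2 or CEM PA mock replicate 1 (SLC25A35), and SLC25A35 gave -0.70 without CEM PA mock replicate 3. In CEM RES the count past the double threshold was 0 to 0 with single arrays left out and 1 without a filter on dim probes (SLC25A43, lower, among 45 genes). For the difference between the responses, the double threshold was passed by SLC25A35 alone with 75th percentile scaling, array weights or the deposited log2 table. It was passed by 0 with normexp and by 1 to 3 with single arrays left out. The count was 1 without CEM PA mock replicate 1, CEM RES FK866 replicate 2 or 3, or CEM RES mock replicate 1, among others. With slide as a block, again on 1 CEM PA array against 1, SLC25A5 gave -0.75, SLC25A25 -1.14, SLC25A35 0.74 and SLC25A2 -0.82. With single arrays left out the adjusted count stayed at 0 to 0 in both lines and for the difference between responses. Between the mock-treated lines the adjusted count ran from 15 (without CEM PA mock replicate 2) to 20 and the double count from 11 to 14. Under FK866 they ran from 12 (without CEM PA FK866 replicate 1) to 18 and from 13 to 14. Without either CEM PA FK866 array the FK866 calls of SLC25A16 (adjusted p = 0.0942 and 0.0611), SLC25A41 (0.136 and 0.0929) and SLC25A46 (0.0902 and 0.0669) were lost, and that of SLC25A42 without replicate 2 (0.0529). With 1 array left in that group, it is assumed to vary like the other groups. Counting all 25 alternative settings, the FK866 calls of SLC25A28, SLC25A41 and SLC25A46 were lost in 5, 3 and 3.

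With the replicate block, which uses the pairing by number, FK866 called 0 carriers in CEM PA and 0 in CEM RES at the adjusted threshold, and 2 and 0 at the double threshold, with SLC25A25 in place of SLC25A35. In CEM PA the adjusted limma p with this block was 0.0541 for SLC25A2 and 0.0543 for SLC25A25, just short of the threshold. Without the block they were 0.111 and 0.392. The difference between responses gave 0 and 3, the mock comparison 20 and 12, and the FK866 comparison of the lines 18 and 14. The replicate block changed no other call of a named carrier in the FK866 comparisons. Under 75th percentile scaling the all-gene median went from 0.04 to 0.16 between the mock-treated lines and from 0.09 to 0.22 under FK866, with that of the carriers at 0.21 and 0.13, and gave 13 higher and 7 lower carriers in mock and 11 higher and 9 lower under FK866. Cause was not tested for any of these shifts. Signals near background limit what the arrays show for SLC25A18, SLC25A21, SLC25A27, SLC25A31, SLC25A43 and SLC25A48.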
